A study of Schmidtea mediterranea with 6 samples.

Results

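The marker transcripts *piwi-1*, *tgs-1* and *prog-1* of the planarian stem cell system were followed in whole-animal RNA-seq of *Schmidtea mediterranea* after knockdown of *nkx2.2*, a transcription factor of the intestine. They were chosen by identifier, as the rows dd_Smed_v6_659_0_1, dd_Smed_v6_10988_0_1 and dd_Smed_v6_332_0_1 of the deposited count table, so the 3 markers stand among 28069 transcripts, of which 14871 passed the filter on low counts. All 3 passed it. The groups were 3 *nkx2.2(RNAi)* libraries and 3 control libraries, whose animals were fed double-stranded RNA against *nkx2.2* or against *egfp*, a sequence not found in planarians. Both groups were uninjured asexual animals of the clonal line CIW4, fed 1 time with 1 µg of double-stranded RNA and starved for 7 days, and the labels name no other treatment. Each library pooled 6 to 10 animals according to the labels, and the study's methods give another number. The animals belong to 1 clone, so the replicates measure the spread between pools of that clone and not between strains. The study states that in earlier work *nkx2.2* knockdown inhibited stem cell proliferation and the forming of the regeneration blastema. The comparison here is of another measure, and asks how marker RNA stood in animals that were not wounded.

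Planarians renew all tissues from neoblasts, the dividing cells of the adult body and the source of new cells after injury. *piwi-1* encodes a PIWI family protein and is the usual marker of neoblasts as a class. *tgs-1* marks a smaller neoblast population held to be closer to pluripotent, which also includes neoblasts specialised for the nervous system. *prog-1* marks early progeny of the epidermal lineage, cells that have left the cell cycle and move towards the body surface. Its level set against that of *piwi-1* relates epidermal progeny to neoblasts of all lineages. In whole animals, a lower value of any marker cannot separate fewer cells of that kind from less of its RNA in each cell.

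The 3 transcripts are unlike each other in sequence, which bears on whether reads could have been shared between them or with the knockdown target. The start of each reading frame is shown because it identifies the transcript that was counted. The capitals mark the first ATG of the longest open frame in the 399 bases given for each clone or transcript in the study's clone table. For *piwi-1* that frame is open from the end of the clone, and for *tgs-1* and *prog-1* it follows a stop codon.
piwi-1: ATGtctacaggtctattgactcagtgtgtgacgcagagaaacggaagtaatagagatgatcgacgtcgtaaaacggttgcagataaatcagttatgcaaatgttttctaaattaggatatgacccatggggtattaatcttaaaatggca
tgs-1: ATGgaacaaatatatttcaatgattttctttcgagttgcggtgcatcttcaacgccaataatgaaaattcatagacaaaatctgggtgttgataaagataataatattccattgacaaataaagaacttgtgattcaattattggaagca
prog-1: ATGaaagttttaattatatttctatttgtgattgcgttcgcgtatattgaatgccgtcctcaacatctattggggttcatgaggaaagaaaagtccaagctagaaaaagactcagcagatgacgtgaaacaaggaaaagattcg
The ATG lies at base 38 of the *piwi-1* clone, base 136 of *tgs-1* and base 256 of *prog-1*. The forward primer used to clone *tgs-1*, CTTTCGAGTTGCGGTGCATC, matches from base 163. Between these stretches the longest identical run on either strand was 10 bases for *piwi-1* and *prog-1*, and 9 bases for *tgs-1* with either of them. The longest run that any of the 3 shared with the 399 bases given for the *nkx2.2* clone was 10 bases. The remaining bases of the clones were not compared. Each marker is the single transcript of its assembly component, so its counts were not divided among isoforms in the table.

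The 6 libraries held between 53327794 and 65513912 counts. The knockdown was present in all 3 treated libraries: *nkx2.2* stood at 9.09, 8.65 and 8.87 CPM (counts per 1000000 counts of the library, scaled by the trimmed mean of M-values, TMM) in *nkx2.2(RNAi)* against 168, 220 and 177 CPM in controls. This is 4.7% of the control mean, and the edgeR exact test gave a log2 fold change of -4.41. On the first principal component, *nkx2.2(RNAi)* replicate 1 lay nearer to the controls than the other *nkx2.2(RNAi)* libraries did, and results that rest on it are given with and without it. Markers of the intestine moved with the groups: *apob-1*, *apob-2* and *ctsla* of 5 listed transcripts were called lower and *slc22a6* higher, where 10.6% of all transcripts were called. The study took up *apob-1* and *apob-2* because they were lower in these same libraries, so their calls follow from that choice. The summed level of the 5, *apob-1* and *apob-2* included, was 1625 to 2451 CPM in *nkx2.2(RNAi)* against 4325 to 4870 CPM in controls. Mean *ctsla* was 947 CPM in *nkx2.2(RNAi)* and 2539 CPM in controls, and mean *slc22a6* 309 and 196 CPM. *npc2* was not called, with means of 437 and 426 CPM. The part of these intestinal shifts in the marker values was not tested. In a list of 4 markers of other tissues (*ChAT*, *laminin*, *notum* and *wnt11-2*), 0 were called by the exact test or by the quasi-likelihood test, and 0 had an unadjusted exact test p under 0.05. The labels and methods do not say that libraries were made on separate days, and with pooled animals the p-values measure the spread between these pools.

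*piwi-1* was slightly lower in *nkx2.2(RNAi)*, in every library, but the difference did not pass the test. It stood at 436.3, 415.7 and 412.3 CPM in *nkx2.2(RNAi)* against 469.3, 458.6 and 464.2 CPM in controls. The groups did not overlap. The means were 421 ± 13 CPM in *nkx2.2(RNAi)* and 464 ± 5.31 CPM in controls (SD, n = 3 each), so that *nkx2.2(RNAi)* animals held 90.8% of the control level. The log2 fold change was -0.14 ± 0.03 (SE over libraries), with an FDR of 0.363 in the edgeR exact test and 0.285 in its quasi-likelihood test. The 95% interval from limma-voom, -0.31 to 0.03, corresponds to 80.7% to 102% of the control level. These counts were deep, 22071 to 29999 per library, and counting error alone would give a coefficient of variation of 0.577% to 0.673%. The spread between replicates was small beside that of other abundant transcripts: the SD within groups was 0.03 on the log2 scale, and 8 of 500 transcripts of like abundance had a smaller one. The edgeR tests share information on the spread across transcripts, so a marker that varied this little is tested against a larger expected variation. How far this weighed on the result for *piwi-1* was not tested. Among all transcripts tested, 10.6% were called by the exact test, 5.43% lower and 5.18% higher. The quasi-likelihood test called 6.46%. Groups without overlap were common in these data: in 12.9% of transcripts all *nkx2.2(RNAi)* libraries were below all controls, and in 14.7% all were above.

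*tgs-1* showed no difference that these libraries could resolve. It stood at 16.9, 16.1 and 17 CPM in *nkx2.2(RNAi)* against 17.5, 17.1 and 15.1 CPM in controls. The groups overlapped, and the lowest and the highest value were both controls. The means were 16.7 ± 0.524 CPM in *nkx2.2(RNAi)* and 16.6 ± 1.25 CPM in controls (SD, n = 3 each). The log2 fold change was 0.01 ± 0.07, with an FDR of 0.974 in the edgeR exact test. The limma-voom interval ran from -0.21 to 0.24, or 86.7% to 118% of the control level, so a change within that range cannot be told from none. This range is not the smallest change that the test would call. *tgs-1* had 853 to 1165 counts per library, and counting error alone gives 2.93% to 3.42%. The observed coefficients of variation were 3.14% in *nkx2.2(RNAi)* and 7.53% in controls.

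*prog-1* differed little in the mean, but 1 *nkx2.2(RNAi)* library was far below the rest. It stood at 484, 648 and 603 CPM in *nkx2.2(RNAi)* against 598, 566 and 596 CPM in controls. Replicate 1 of *nkx2.2(RNAi)* was the lowest of the 6 libraries, and the other *nkx2.2(RNAi)* libraries were the highest. The means were 578 ± 84.6 CPM in *nkx2.2(RNAi)* and 587 ± 17.9 CPM in controls (SD, n = 3 each). The coefficient of variation was 14.6% in *nkx2.2(RNAi)* and 3.05% in controls. The log2 fold change was -0.02 ± 0.13 with an edgeR exact test FDR of 0.939, and the limma-voom interval was -0.28 to 0.22, or 82.2% to 117% of the control level. Without *nkx2.2(RNAi)* replicate 1 the sign turned, to 0.09, with an exact test FDR of 0.509. *piwi-1* and *tgs-1* moved less without that library, to -0.17 (FDR 0.161) and to -0.0034 (FDR 0.995) on the log2 scale.

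**Figure D1:**
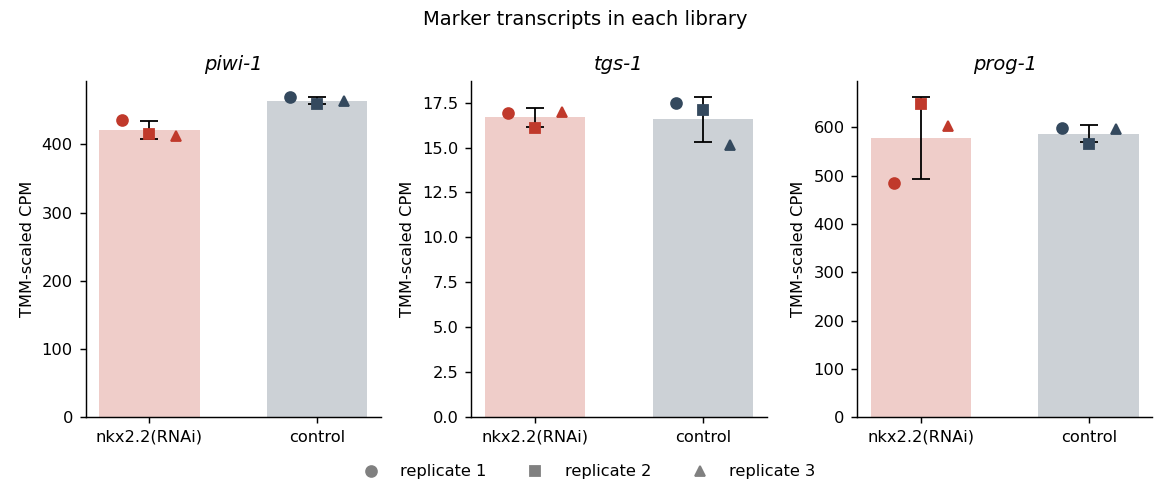
TMM-scaled CPM (vertical axis, from 0) of *piwi-1*, *tgs-1* and *prog-1* in the 3 *nkx2.2(RNAi)* libraries (left, red) and 3 control libraries (right, grey); symbols are libraries, bars are means and error bars are the SD. For *piwi-1* all *nkx2.2(RNAi)* points lie below all controls, and for *prog-1* the point of *nkx2.2(RNAi)* replicate 1, at 484 CPM, lies apart from the others.

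Per base of transcript the order of the markers was the same in all 6 libraries, *prog-1* highest, then *piwi-1*, then *tgs-1*. *prog-1* had 502 to 672 CPM per kilobase in *nkx2.2(RNAi)* and 588 to 621 in controls. *piwi-1* had 157 to 167 CPM per kilobase in *nkx2.2(RNAi)* and 175 to 179 in controls, and *tgs-1* had 9.49 to 10 in *nkx2.2(RNAi)* and 8.94 to 10.3 in controls. The ranges of the 3 markers did not overlap. Transcript lengths of 963 bases for *prog-1*, 2618 for *piwi-1* and 1693 for *tgs-1* were taken from the count table.

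The ratio of *prog-1* to *piwi-1*, epidermal progeny relative to neoblasts, did not separate the groups. Within each library and per base of transcript it was 3.01, 4.23 and 3.97 in *nkx2.2(RNAi)* against 3.47, 3.36 and 3.49 in controls. The controls lay close together and the *nkx2.2(RNAi)* libraries lay on both sides of them, with replicate 1 below and the other libraries above. The mean log2 ratio was 1.89 ± 0.26 in *nkx2.2(RNAi)* and 1.78 ± 0.03 in controls (SD, n = 3 each), a difference of 0.11 ± 0.15 (SE). The two-sided exact permutation test gave p = 0.5, or 0.75 after Benjamini-Hochberg adjustment over the 3 ratios compared. The exact rank-based interval of the difference, with a coverage of 90%, was -0.21 to 0.34. With 3 libraries against 3 this test cannot give a p below 0.1. Without *nkx2.2(RNAi)* replicate 1 the difference was 0.26 and the groups no longer overlapped, with an exact permutation p = 0.1, which is again the smallest that can be reached. It was 0.010 (p = 1, exact permutation test) without *nkx2.2(RNAi)* replicate 2 and 0.056 (p = 0.7) without replicate 3, so each *nkx2.2(RNAi)* library moved it by over 1.5 times.

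The ratio of *prog-1* to *tgs-1* also overlapped between the groups. It was 50.2, 70.9 and 62.3 in *nkx2.2(RNAi)* against 60.2, 58.3 and 69.2 in controls. The mean log2 ratio was 5.92 ± 0.25 in *nkx2.2(RNAi)* and 5.96 ± 0.13 in controls (SD, n = 3 each). The difference was -0.04, with an interval of -0.46 to 0.28 and an exact permutation p = 1, and its sign was positive without *nkx2.2(RNAi)* replicate 1 (0.09) or without control replicate 3 (0.03) and negative without *nkx2.2(RNAi)* replicate 2 (-0.16).

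The ratio of *tgs-1* to *piwi-1*, the smaller neoblast population relative to the whole class, was higher in every *nkx2.2(RNAi)* library. It was 0.0601, 0.0598 and 0.0638 in *nkx2.2(RNAi)* against 0.0576, 0.0576 and 0.0504 in controls. The groups did not overlap. The mean log2 ratio was -4.03 ± 0.05 in *nkx2.2(RNAi)* and -4.18 ± 0.11 in controls (SD, n = 3 each), a difference of 0.15 with an interval of 0.05 to 0.34. The exact permutation p was 0.1, the smallest this design allows, and 0.3 after adjustment over the 3 ratios, so the difference did not pass the test. Control replicate 3, the lowest of the 6 values, set much of it: the difference was 0.09 without that library, a change of more than 1.5 times, and the groups still did not overlap. Replicate 1 of *nkx2.2(RNAi)*, which lay apart in *prog-1*, lay among its group in this ratio, and the difference was 0.16 without it.

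**Figure D2:**
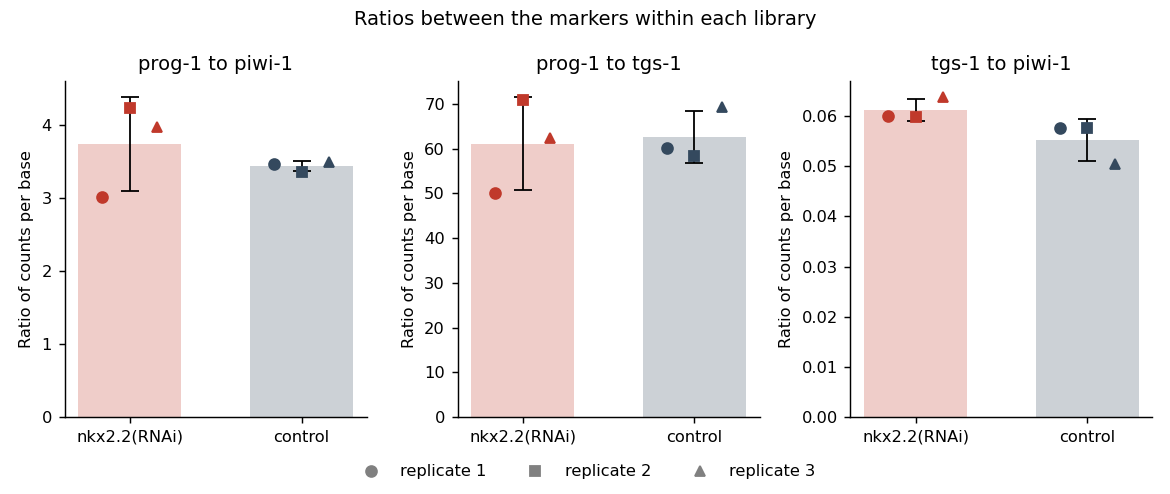
Ratios of counts per base (vertical axis, from 0) between the markers within each library, for the 3 *nkx2.2(RNAi)* libraries (left, red) and the 3 control libraries (right, grey); symbols are libraries, bars are means and error bars the SD. Replicate 1 of *nkx2.2(RNAi)* has the lowest *prog-1* to *piwi-1* ratio, 3.01, and the 3 *nkx2.2(RNAi)* values of *tgs-1* to *piwi-1* lie above the controls.

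Fold changes in these libraries moved with abundance, so each marker was also set beside the 500 tested transcripts nearest to it in mean log2 CPM. The median log2 fold change of all transcripts was 0.02, and over 10 classes of equal size by abundance it ran from -0.18 in the lowest to 0.14 in the highest. *piwi-1* was more abundant than all but 2.21% of the tested transcripts and *prog-1* than all but 1.61%, whereas 52.4% stood above *tgs-1*. The transcripts of like abundance to *piwi-1* had a median of 0.15, with the middle 50% between 0.03 and 0.26. Against that background *piwi-1* lay 0.29 lower on the log2 scale, and 50 of the 500 had a lower fold change than it had. The exact test called 17.6% of them, 15 lower and 73 higher, and the smallest change called was 0.29 in size. In 45 of the 500 all *nkx2.2(RNAi)* libraries were below all controls, as for *piwi-1*, and in 133 all were above. *piwi-1* was therefore among the lower fold changes in a group of transcripts that mostly stood higher, without being called itself.

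The same background by library shows where the gap arose. Relative to its own mean over 6 libraries, *piwi-1* departed from the median of like transcripts by 0.05, -0.23 and -0.25 on the log2 scale in *nkx2.2(RNAi)* libraries 1, 2 and 3, against 0.19, 0.11 and 0.11 in controls. The groups did not overlap on this scale either. Like transcripts stood 0.14 and 0.15 above their mean in *nkx2.2(RNAi)* replicates 2 and 3 and 0.07 below it in replicate 1. When the trend with abundance was removed by offsets in the quasi-likelihood test, the log2 fold change of *piwi-1* was -0.28, with an unadjusted p of 0.0089 and an FDR of 0.0874 over all transcripts, still short of the threshold of 0.05.

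For *prog-1*, like transcripts had a median of 0.14 and the marker lay 0.17 below it, with 99 of 500 transcripts lower. Of these 500, 19.8% were called by the exact test, 21 lower and 78 higher. By library, *prog-1* departed from the median of like transcripts by -0.19, 0.02 and -0.10 in *nkx2.2(RNAi)*, against 0.14, 0.03 and 0.07 in controls. With abundance offsets its log2 fold change was -0.18, with an FDR of 0.177 in the quasi-likelihood test. For *tgs-1*, like transcripts had a median of -0.01 and the marker lay 0.02 above it. Of these, 10.8% were called, 30 lower and 24 higher, and the smallest change called was 0.35 in size. *tgs-1* departed from like transcripts by 0.01, -0.04 and 0.05 in *nkx2.2(RNAi)* and by 0.07, 0.02 and -0.14 in controls, so control replicate 3 was again the farthest.

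**Figure D3:**
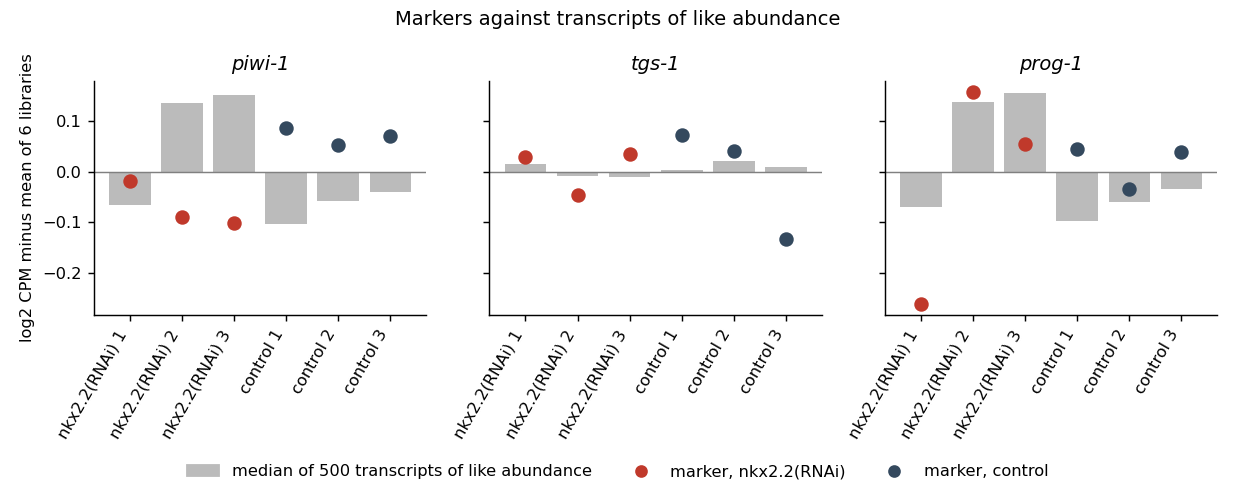
Deviation of log2 CPM from the mean of the 6 libraries (vertical axis) for each marker (points, red for *nkx2.2(RNAi)* and dark for control) and for the median of its 500 transcripts of like abundance (grey bars), by library. In *nkx2.2(RNAi)* replicates 2 and 3 the *piwi-1* points lie below 0 while the bars reach 0.14 and 0.15.

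**Figure D4:**
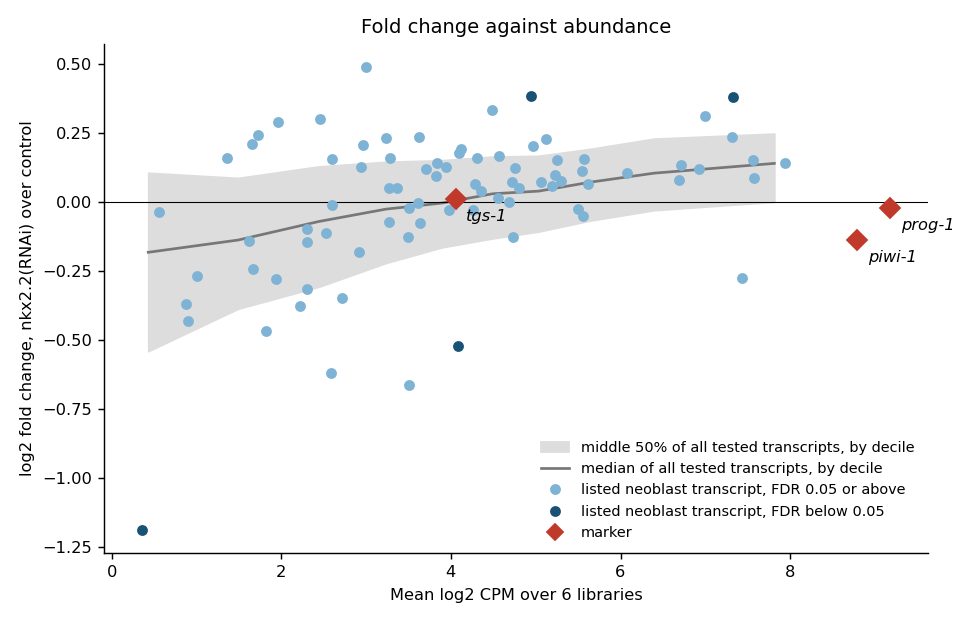
Log2 fold change of *nkx2.2(RNAi)* over control (vertical axis) against mean log2 CPM (horizontal axis) for the 3 markers (red diamonds) and the 82 tested transcripts of the neoblast lists (blue, dark where the exact test FDR was below 0.05), over the median and the middle 50% of all tested transcripts in 10 classes by abundance (grey). The grey band ends at the median abundance of the highest class, 7.81, left of *piwi-1* at 8.79 and *prog-1* at 9.18. *piwi-1*, at -0.14, lies lower than the middle 50% of that class, 0.00034 to 0.25, and *tgs-1* lies on the grey median line.

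The scale also rests on what is held constant. Measured against *ef-2*, a translation elongation factor, and *gapdh*, a glycolytic enzyme, the reference transcripts of the study's quantitative PCR, the difference between *nkx2.2(RNAi)* and control was -0.28 on the log2 scale for *piwi-1*, -0.18 for *prog-1* and -0.13 for *tgs-1*. The exact permutation p was 0.2 for *piwi-1*, 0.2 for *prog-1* and 0.4 for *tgs-1*, and the adjusted values were 0.3, 0.3 and 0.4, with overlapping groups in each case. *ef-2* itself stood at 4643, 5544 and 5795 CPM in *nkx2.2(RNAi)* against 4044, 4504 and 4689 CPM in controls, a log2 fold change of 0.27 with an exact test FDR of 0.148. *gapdh* had a log2 fold change of 0.03 (FDR 0.919). Scaling to these 2 transcripts moved the median of all transcripts to -0.12, so the markers shifted together with the rest.

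To set the markers beside the wider stem cell program, 87 transcripts were grouped into 9 lists by the best human match of transcripts enriched in sorted cycling cells, and 82 of them passed the filter. The gene names below are those human matches, and several planarian transcripts can share 1. The exact test called 2 lower and 2 higher, and the quasi-likelihood test 1 lower and 1 higher, or 4 of 82 by the exact test against the 10.6% of all transcripts. The median log2 fold change over the 82 was 0.07, with 50 positive and 32 negative, beside 0.02 over all transcripts. Their summed level was 2758, 3065 and 2922 CPM in *nkx2.2(RNAi)* and 2707 to 2745 CPM in controls, so every *nkx2.2(RNAi)* sum was above the controls, the least so in replicate 1. Abundant transcripts weigh most in a sum, and the most abundant class of all transcripts had a median log2 fold change of 0.14. In 14.7% of all transcripts every *nkx2.2(RNAi)* library stood above every control. The direction of the median over the 82 depended on scaling: it was -0.07 when libraries were scaled to *ef-2* and *gapdh*, where all transcripts had a median of -0.12. With abundance offsets it was 0.029, beside 0.0058 over all transcripts. At an unadjusted p under 0.05 the exact test picked 12 of the 82, and 24.3% of all transcripts.

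The MCM2-7 helicase, which unwinds DNA at the replication fork, had 6 transcripts, and 0 were called. Their log2 fold changes lay between 0.06 and 0.23, positive in 6 of 6, and 2 of 6 were positive when scaled to *ef-2* and *gapdh*. *MCM5* was highest in fold change, at 36, 36.9 and 40.1 CPM in *nkx2.2(RNAi)* against 33.2, 29.9 and 33.4 CPM in controls (log2 fold change 0.23, exact test FDR 0.16). *MCM2* (0.15), *MCM6* (0.12) and *MCM3* (0.11) followed, then *MCM7* (0.06) and *MCM4* (0.06). The *nkx2.2(RNAi)* libraries stood above all controls for *MCM2*, *MCM3* and *MCM5*, as in 14.7% of all transcripts, and at an unadjusted p under 0.05 the exact test picked 1 of the 6, *MCM5*, beside 24.3% of all transcripts. The median of the 6 was 0.12, and 0.036 with abundance offsets. *MCM6*, the most abundant, stood at 121.0, 135.5 and 122.6 CPM in *nkx2.2(RNAi)* against 109.3, 115.8 and 123.9 CPM in controls, and these values overlapped.

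Proteins that license and fire replication origins had a median of -0.02 over 10 transcripts. *GINS4*, a subunit of the complex that activates the helicase, was called lower, at 1.13, 0.565 and 0.841 CPM in *nkx2.2(RNAi)* against 2.42, 2.02 and 1.38 CPM in controls. At counts this close to the filter the exact test gave -1.19 on the log2 scale and an FDR of 0.00885, and the quasi-likelihood test an FDR of 0.0702. The origin recognition subunits *ORC1L* (-0.03) and *ORC4* (0.05) were the most abundant of the list, and neither was called.

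Replication fork proteins had a median of 0.10 over 10 transcripts, with 0 called and 1 at an unadjusted exact test p under 0.05. *PCNA*, the sliding clamp, had a log2 fold change of 0.20 (exact test FDR 0.251) and *RFC5*, a clamp loader subunit, of -0.03. Among 5 enzymes of deoxynucleotide supply the median was also 0.10. *TYMS*, thymidylate synthase, rose to 164, 204 and 184 CPM in *nkx2.2(RNAi)*, against 132, 143 and 150 CPM in controls. Its log2 fold change was 0.38 (exact test FDR 0.0138), and the quasi-likelihood test gave 0.0562. *RRM1*, the large subunit of ribonucleotide reductase, stood at 193.1, 202.7 and 194.5 CPM in *nkx2.2(RNAi)* against 185.6, 183.6 and 187.1 CPM in controls. Its *nkx2.2(RNAi)* values all lay above the controls, as in 14.7% of all transcripts, and it was not called (0.09, exact test FDR 0.595).

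Cyclins, cell cycle kinases and mitotic motors had a median of 0.02 over 18 transcripts. *AURKC* (dd_Smed_v6_10323_0_1), a match to the Aurora kinases of mitosis and meiosis, fell to 15.5, 14.5 and 12.4 CPM in *nkx2.2(RNAi)*, against 22, 20 and 18.9 CPM in controls. Its log2 fold change was -0.52 ± 0.11, with an FDR of 0.0025 in the exact test and 0.0262 in the quasi-likelihood test. The other Aurora kinase matches of the list were not called. A second *AURKC* match (dd_Smed_v6_12125_0_1) had a log2 fold change of 0.23 (exact test FDR 0.353). *AURKA* matches stood at -0.07 (dd_Smed_v6_9065_0_1) and 0.16 (dd_Smed_v6_15869_0_1). The most abundant members, the mitotic kinase *PLK1* (0.08) and the G1 kinase *CDK4* (0.07), were not called. Histones and chromatin assembly factors had a median of 0.13 over 11 transcripts, with 0 called. The 2 at an unadjusted exact test p under 0.05 were the histones *H2AFZ* (0.33, FDR 0.116) and *H3F3A* (0.24, FDR 0.173). *HIST2H2AC* (0.15, FDR 0.392), the most abundant of the list, was not among them.

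Sm and LSm proteins, the ring proteins of spliceosomal and related RNA particles, had a median of 0.09 over 12 transcripts. *SNRPG* rose to 31.1, 37.6 and 36.7 CPM in *nkx2.2(RNAi)*, against 26.1, 26.3 and 28.3 CPM in controls (log2 fold change 0.38, exact test FDR 0.0126, quasi-likelihood FDR 0.0469). The more abundant *SNRPD3* (0.31, FDR 0.0871) and *SNRPN* (0.10, FDR 0.683) were not called. The germ granule and translation regulators are RNA-binding proteins of which planarian neoblasts hold many. Of 4 transcripts, 0 were called and 1 had an unadjusted exact test p under 0.05, with *DDX4* (dd_Smed_v6_1985_0_1), a match to Vasa helicases, at 0.14 (FDR 0.395) and *CELF3* at -0.27 (FDR 0.0704). *CELF3* stood at 161, 157 and 153 CPM in *nkx2.2(RNAi)* against 208, 185 and 176 CPM in controls. Its *nkx2.2(RNAi)* values all lay below the controls, as in 12.9% of all transcripts. Of 6 transcription factors linked to neoblast lineages 0 were called and 1 had an unadjusted exact test p under 0.05, with *ZNF341* at -0.13 and *SOX13* at 0.01 the most abundant.

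Without *nkx2.2(RNAi)* replicate 1 the exact test called many more transcripts, 31.4% of all tested, 17.1% lower and 14.3% higher. It then called 7 of the listed transcripts lower and 9 higher, the 4 above among them. The added lower transcripts included *CCNB1*, a mitotic cyclin, at -1.16, and *RRM2B*, a small subunit of ribonucleotide reductase, at -1.16, and the added higher ones included *POLE* (0.53), *H2AFZ* (0.44) and *PCNA* (0.27). The 3 markers were not called in that comparison.

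**Figure D5:**
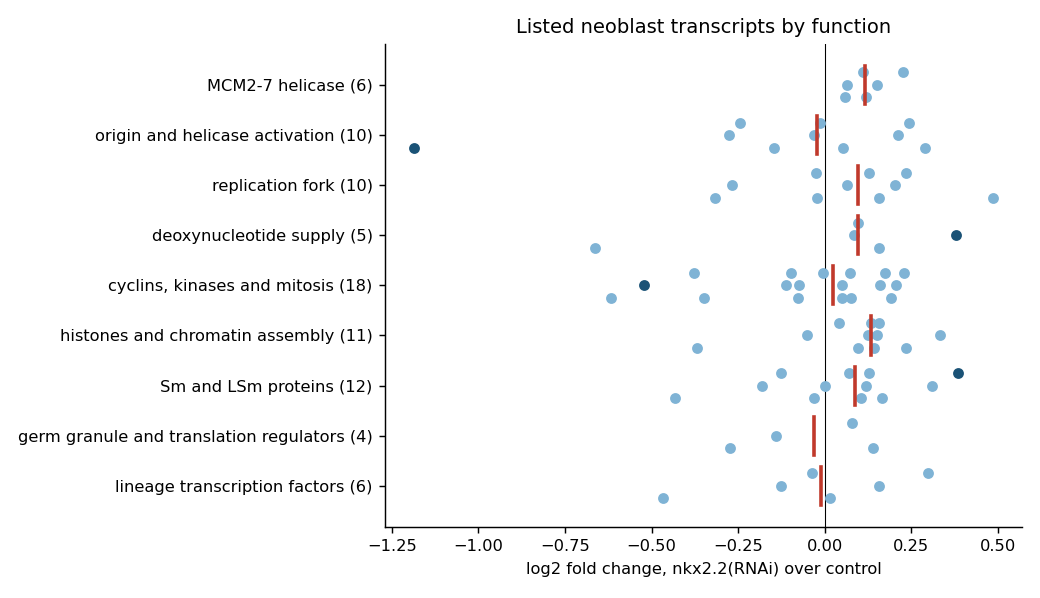
Log2 fold change of *nkx2.2(RNAi)* over control (horizontal axis) for each tested transcript of the 9 neoblast lists (rows, number tested in parentheses); points are transcripts, dark where the exact test FDR was below 0.05, and red lines are list medians. Medians lie between -0.03 and 0.13.

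Across the 6 libraries, the listed transcripts most like *piwi-1* in log2 CPM were *AURKC* (dd_Smed_v6_10323_0_1, Pearson r = 0.96), *GINS4* (r = 0.91) and *CELF3* (r = 0.89). All 3 stood lower in each *nkx2.2(RNAi)* library than in any control, as *piwi-1* did, so this follows largely from how they were picked. Such a separation was found in 6 of the 82 listed transcripts and in 12.9% of all transcripts. The opposite one, every *nkx2.2(RNAi)* library above every control, was found in 15 of the 82 and in 14.7% of all transcripts. The listed transcripts most like *tgs-1* were *CDC16* (r = 0.89), *SOX13* (r = 0.86) and *POLE2* (r = 0.67). For *prog-1* they were *RBBP4* (dd_Smed_v6_7612_0_1, r = 0.93), *SNRPN* (r = 0.83) and a second *RBBP4* match (dd_Smed_v6_5055_0_1, r = 0.79). The markers themselves were not alike over the libraries, with r = -0.02 between *piwi-1* and *tgs-1*, -0.17 between *piwi-1* and *prog-1* and -0.31 between *tgs-1* and *prog-1*. These coefficients describe 6 libraries that share a scaling and fall into 2 groups, and each named transcript was picked as one of the highest among 82.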

How the data were processed

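Poly(A) RNA of whole animals was sequenced, and reads were mapped by the authors to the dd_Smed_v6 transcriptome (Bowtie2 2.3.1) and summarised with featureCounts (Subread 1.6.3), so that a read with several matching transcripts added to all of them. The deposited counts are raw paired-end read counts per transcript. A second deposited table, with the authors' fold changes and FDR values, was not used. A row with no transcript name, at 0 in all libraries, was left out.

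The filter kept 14871 of 28069 transcripts, those over 1 CPM in 3 or more libraries. TMM factors and dispersions were estimated, and groups were compared with the exact test (edgeR 4.0.16, R 4.3.3) with Benjamini-Hochberg adjustment over all transcripts tested and a threshold of 0.05. Alternatives were the quasi-likelihood test, DESeq2 1.42.0, limma-voom (limma 3.58.1), other scalings and filters, a replicate block, abundance offsets, component sums and each library left out. SE of fold changes came from log2 CPM with a prior count of 2. Ratios used counts per base and two-sided exact permutation tests. Like abundance meant the 500 nearest transcripts. Counting errors cover counting only.

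The markers and lists were chosen with earlier results of these data known. Named were all markers, *nkx2.2*, *ef-2*, *gapdh*, MCM2-7, and in each list the called transcripts and the 2 of highest mean CPM. Transcripts named among the calls without replicate 1, and *CDC16* and the like in the likeness search, follow from those comparisons. *H2AFZ* was also named for its unadjusted p, and the other Aurora kinase matches were named beside the called *AURKC*. Lists came from human BLASTX matches, shortened in the copy used here, of transcripts enriched in sorted X1 cells. On simulated counts, the exact test recovered 186 of 197 changed transcripts with 20.9% false calls, and the quasi-likelihood test 176 with 7.85%. Recovery of changes as small as those of the markers was not tested.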

Additional observations from a re-analysis of the deposited data

How the results depend on the processing

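Of 16 alternatives, 0 called any of the 3 markers. *piwi-1* was negative in all 16, from -0.28 to -0.11, with FDR from 0.0874 to 0.673. These alternatives reuse the same libraries, so their shared sign is not independent support. As the *piwi-1* groups did not overlap, leaving out 1 library could hardly turn its sign, and component sums left its counts unchanged. *tgs-1* lay within 0.13 of 0 and turned negative under DESeq2 (-0.0086), RLE factors (-0.0086), library size alone (-0.050) and scaling to *ef-2* and *gapdh* (-0.13), and ran from -0.054 to 0.047 with libraries left out. *prog-1* turned positive with no filter (0.0060) and ran from -0.14 to 0.090 with libraries left out.

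The *prog-1* to *piwi-1* difference ran from 0.010 to 0.26 with libraries left out, *prog-1* to *tgs-1* from -0.16 to 0.091, and *tgs-1* to *piwi-1* from 0.088 to 0.18. In tests with replicate numbers as a block, *piwi-1* had an FDR of 0.294. For the ratios the block leaves the mean differences unchanged by arithmetic. The exact sign-flip p was 0.75 for *prog-1* to *piwi-1* (0.11), 1 for *prog-1* to *tgs-1* (-0.04) and 0.25 for *tgs-1* to *piwi-1* (0.15). With 3 pairs this test cannot give a p below 0.25. Same-numbered libraries correlated in their deviations by 0.40, 0.00 and 0.17, and *nkx2.2(RNAi)* replicate 1 matched its own number best, whereas replicate 2 correlated best with control replicate 3 (0.21) and replicate 3 with control replicate 2 (0.24). Not every pair exceeded 0.1 and the labels name no shared batch, so the numbers were not taken to pair the libraries. The block nevertheless raised the calls of the quasi-likelihood test to 1075 lower and 797 higher, against 509 and 452 without it, and to 3 lower and 2 higher among listed transcripts.

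Transcripts called lower numbered 808, against 509 by the quasi-likelihood test and 533 by limma-voom, and 418 to 2508 with libraries left out. Those called higher numbered 771, against 452, 459, 236 with scaling to *ef-2* and *gapdh*, 391 with abundance offsets, and 292 to 2097 with libraries left out. Listed transcripts called lower were 2, against 1 by the quasi-likelihood test, 1 by limma-voom and 0 to 7 with libraries left out. Those called higher were 2, against 1 by the quasi-likelihood test, 0 by limma-voom, 0 scaled to *ef-2* and *gapdh*, 0 with abundance offsets and 0 to 9 with libraries left out. The listed median of 0.072 became 0.0072 with library size alone, 0.029 with abundance offsets and -0.075 with *ef-2* and *gapdh*, and ran from 0.0053 to 0.094 with libraries left out; the cause of these changes was not tested.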
